A study of Mus musculus with 7 samples.

Results

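Oxidative phosphorylation genes encode the 5 enzyme complexes of the inner mitochondrial membrane. They were taken as the probe sets whose platform annotation gave exactly 1 gene symbol starting with Ndufa, Ndufb, Ndufc, Ndufs, Ndufv, Uqcr, Cox4 to Cox8 or Atp5, or equal to Sdha, Sdhb, Sdhc, Sdhd or Cyc1. This rule, which used names and no measured value, found 83 genes on 150 probe sets, of 8378 genes on 16255 probe sets in all. By complex they were 41 genes of complex I, 4 of complex II, 9 of complex III, 12 of complex IV and 17 of complex V. The complex I group holds 8 assembly factors (Ndufaf genes), which build the enzyme without being part of it. Ndufa4 was counted with complex IV, where its protein is now placed in spite of the name.

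The 7 Affymetrix mouse arrays hold marrow of mice that had received transplanted marrow. There were 3 arrays of unsorted marrow carrying a mock transgene, 2 of unsorted marrow carrying ABCG2, a drug efflux pump, and 1 each of the GFP-negative and GFP-positive sorted fractions of EZH2-Mt marrow from MDS-like recipients (MDS being myelodysplastic syndrome and EZH2 the methyltransferase of Polycomb repressive complex 2). The labels used here give no strain or age, no promoter for the transgenes, no share of unsorted marrow that carried one, and no word on whether both fractions came from 1 mouse. The ABCG2 titles carry a series tag that the others lack, and if it marks a batch, batch and ABCG2 cannot be told apart. Signals were read as log2 values, centred in each probe set on the median of the 7 arrays, so they compare arrays within a gene and give no level of 1 gene against another. Every probe set used had a Present or Marginal detection call on all 7 arrays, so a fall here is one between detected signals.

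In respiration, complex I takes electrons from NADH and complex II from succinate, ubiquinone carries them to complex III, and cytochrome c carries them on to complex IV, which passes them to oxygen. Complexes I, III and IV pump protons, and complex V, the ATP synthase, makes ATP as the protons flow back. Most subunits are encoded in the nucleus, and a few core subunits of complexes I, III, IV and V are encoded in mitochondrial DNA and were not analysed here. In marrow, mature neutrophils are known for relying largely on glycolysis and for having few mitochondria, while erythroblasts and dividing progenitors hold more.

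The arrays differed in more than these genes. The SD over all probe sets was 0.33 to 0.42 on the mock arrays, 0.41 and 0.54 on the GFP-negative and GFP-positive arrays, and 1.06 and 1.13 on the ABCG2 arrays. Cell type markers moved with the groups. All 11 measured neutrophil markers were lower in ABCG2 marrow, with a list mean of -3.88 and -5.51 on the ABCG2 arrays and from -0.22 to 0.04 on the mock arrays. Of 7 monocyte and macrophage markers 6 were lower (ABCG2 means -3.12 and -3.13, mock 0.79 to 0.88), and of 4 measured B-lineage markers 3 were higher (1.76 and 2.6 against -1.77 to -1.21). Of 3 measured stem and progenitor markers 2 were higher in ABCG2 marrow, Flt3 by 2.84 and Sox4 by 2.65, with list means of 1.57 and 1.66 against -0.71 to -0.13. Of 4 measured T and NK markers 2 were higher and 1 lower (means 0.54 and 0.30 against -1.93 to -0.27). The 4 measured erythroid markers averaged 1.6 on the GFP-positive array, 0.45 on the GFP-negative array, -0.83 to 0.57 on the mock arrays and -0.52 and -0.14 on the ABCG2 arrays, and the neutrophil list averaged 0.96 on the GFP-positive array. The manufacturer's spiked hybridisation controls averaged -0.65 and -0.74 on the ABCG2 arrays, -0.24 to 0.068 on the mock arrays, and for the GFP-negative and GFP-positive cells 0.96 and 2.22. Of the 7 probe sets averaged, that for BioB was at -3.24 and -3.15 on the ABCG2 arrays. The others lay there from -0.50 to 0.00 and from -0.69 to -0.17. The spiked poly-A controls averaged -1.13 and -1.67 on the ABCG2 arrays, -0.11 to 0.028 in mock marrow, and 1.96 and 3.66 in the EZH2-Mt fractions. As a sign of RNA quality, the beta-actin 3' minus 5' difference was 0.40 and 0.42 on the ABCG2 arrays, 0.14 and 0.31 in GFP-negative and GFP-positive cells, and -0.051 to 0.036 in mock marrow. The same difference for Gapdh was -0.078 and -0.11 for ABCG2, 0.090 and 0.35 in the fractions, and -0.080 to 0.10 in mock. The part of cell makeup and of array handling in the results below was not tested. In bulk marrow, fewer cells of a type and less RNA per cell cannot be told apart.

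As a body, the oxidative phosphorylation genes shifted little. Their median was -0.065, -0.014 and 0.086 on mock replicates 1, 2 and 3, and 0.095 and 0.22 on the ABCG2 arrays. For GFP-negative and GFP-positive EZH2-Mt cells it was -0.089 and -0.061. Both ABCG2 medians lay above the mock medians, ABCG2 replicate 1 by a narrow margin over mock replicate 3, and the GFP-negative median lay below all of them. The plot of centred values by array shows a wider spread of these genes on the ABCG2 arrays (SD 0.47 and 0.54) than on the mock arrays (0.15 to 0.19).

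**Figure D1:**
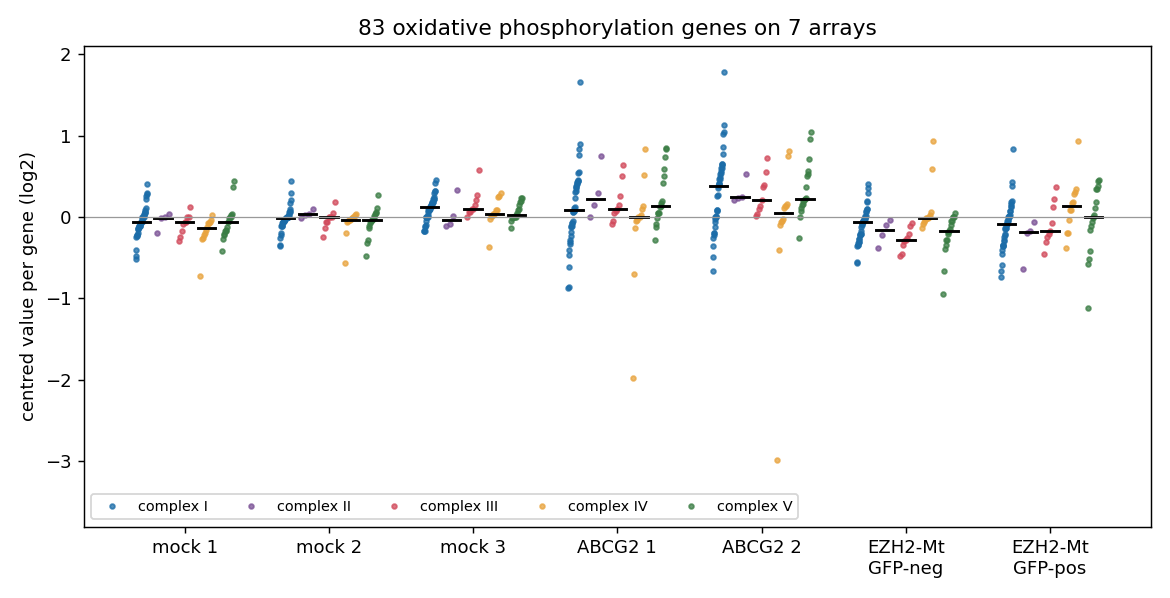
Centred value (log2) of each of the 83 genes on each of the 7 arrays, 1 point a gene, coloured by complex, with a black line at the median of the complex. The ABCG2 arrays show the widest spread, with Cox6b2 at -1.98 and -2.98 as the lowest point and Ndufaf2 at 1.65 and 1.78 as the highest.

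ABCG2 marrow was compared with mock marrow to ask which of these genes differ when the transplanted marrow carries ABCG2. Of the 83 genes 28 rose and 7 fell (limma, adjusted p under 0.05 over all 8378 genes, n = 2 against 3 arrays). The share that rose, 33.7%, was near the 35.6% of all genes that rose, whereas 8.43% fell, against 26.2% of all genes. In either direction 35 genes passed, or 42.2%, against 61.8% of all genes. Both ABCG2 arrays lay above all 3 mock arrays in 40 of the 83 (44.2% of all genes) and below them in 14 (32.7% of all genes). The median difference was 0.19, against 0.15 over all genes. Differences were small: 55 of the 83 genes (66.3%) differed by under 0.5 in either direction, against 40.1% of all genes, and the median size of a difference was 0.32, against 0.65. Only 6 of the 83 passed the test with a difference of at least 1 log2 (7.23%, against 30.8% of all genes). They were Ndufaf2, Ndufs3, Ndufaf5, Cox7c and Atp5g2, which rose, and Cox6b2, which fell.

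These counts depend on how arrays are scaled and on single arrays. With quantile normalization, which gives every array the same spread, 5 of the 83 rose and 4 fell (17.0% and 17.3% of all genes), so that 55.6% of the calls among the 83 were rises, against 80% without it. Of the 35 calls 27 were lost that way, and the 8 kept were those of Ndufs3, Ndufaf2, Ndufaf5, Cox7c, Atp5g2, Cox6b2, Ndufb6 and Ndufa2. Without mock replicate 2, 17 rose, or 20.5%, against 29.4% of all genes. Without ABCG2 replicate 1 or 2, which leaves 1 ABCG2 array, the median difference was 0.21 or 0.15, against 0.18 or 0.13 over all genes. Leaving out some 1 array ended the call of 15 of the 35. As no label ties an array to a mouse, the p-values reflect spread among arrays, which may be technical.

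**Figure D2:**
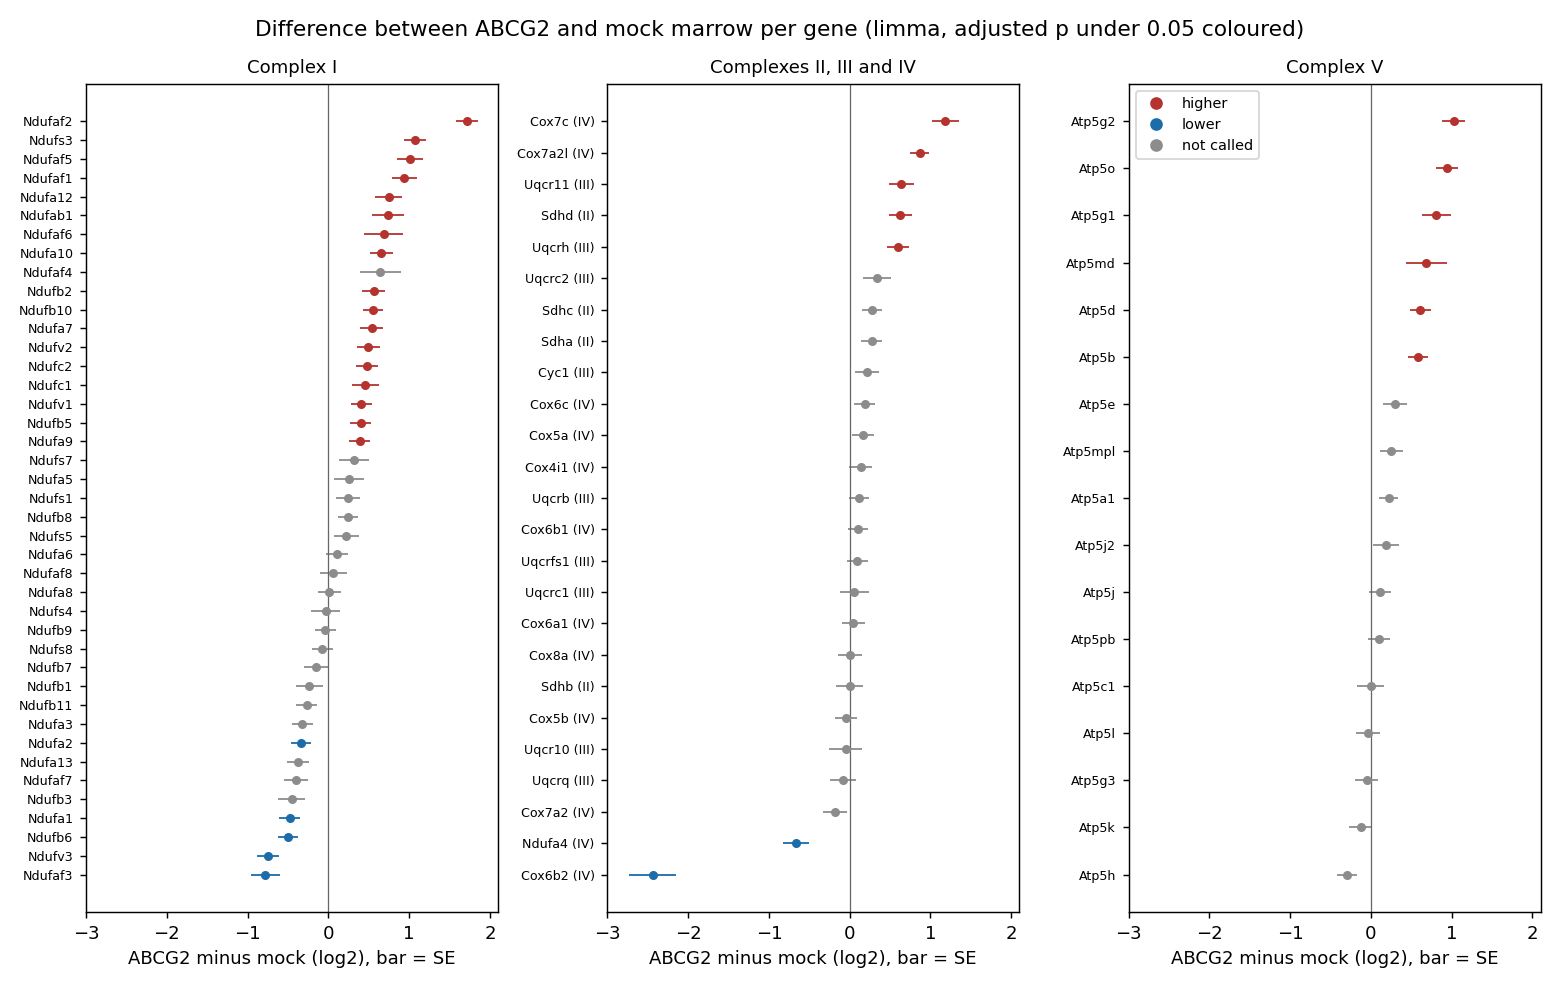
Difference between the ABCG2 and mock means (log2) for each of the 83 genes with limma's standard error as the bar, in panels for complex I, for complexes II, III and IV and for complex V. Red points rose, blue points fell and grey points did not pass the test, and Cox6b2 at -2.44 and Ndufaf2 at 1.71 are the extremes.

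Complex I, the NADH dehydrogenase, held 17 of the 28 rises and 5 of the 7 falls in its 41 genes (35.6% and 26.2% of all genes). Its median difference was 0.25, against 0.15 over all genes. Of its 8 assembly factors 4 rose and 1 fell, beside 35.6% and 26.2% of all genes, and their median was 0.66. Whether they differ from the other subunits was not tested. Ndufaf2, which encodes a chaperone of late complex I assembly, lay at 1.65 and 1.78 on the ABCG2 arrays and at 0.11, -0.10 and 0.00 in mock marrow. Those values leave a wide gap between the groups. The difference was 1.71 ± 0.14 (SE, 3.28-fold, limma adjusted p = 0.000112), and 0.99 with quantile normalization. On the GFP-negative array Ndufaf2 was at -0.051 and on the GFP-positive array at -0.73, the lowest of the 7.

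Ndufaf5 encodes an enzyme that hydroxylates an arginine of the core subunit Ndufs7 early in assembly. It lay at 0.83 and 0.77 on the ABCG2 arrays, above the mock arrays at -0.41, -0.23 and 0.00. It rose by 1.01 ± 0.16 (limma adjusted p = 0.00186). Ndufaf1, an assembly factor of the membrane arm, was at 0.76 and 1.13 against -0.024, 0.041 and 0.00 and rose by 0.94 ± 0.15 (limma adjusted p = 0.00215). Ndufaf6 rose as well, by 0.68 ± 0.24 (limma adjusted p = 0.0448), with its ABCG2 arrays far apart at 0.38 and 1.05. Its call was lost without mock replicate 1, mock replicate 2 or ABCG2 replicate 2 (limma adjusted p up to 0.231). The assembly factor that fell was Ndufaf3, at -0.86 and -0.49 against 0.00, -0.011 and 0.32 on the mock arrays (-0.78 ± 0.18, limma adjusted p = 0.00910, and adjusted p = 0.113 with quantile normalization). Ndufaf4, the partner of Ndufaf3 in assembly, had a difference of the opposite sign that missed the threshold (0.64, 95% interval 0.044 to 1.24, limma adjusted p = 0.0611). Ndufaf7, which methylates a core subunit, lay at -0.33 and 0.00 on the ABCG2 arrays, below 0.30, 0.21 and 0.22 on the mock arrays. Its difference of -0.40 also missed the threshold (adjusted p = 0.0509 in limma), passing with quantile normalization (-0.58, adjusted p = 0.0341). Ndufaf8 was at 0.062 (95% interval -0.35 to 0.47).

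The 6 measured core subunits of complex I carry the flavin and the iron-sulfur clusters or hold the catalytic arm. Of these, 3 rose and 0 fell (35.6% and 26.2% of all genes). Ndufs3 was at 0.90 and 1.02 on the ABCG2 arrays and at -0.23, 0.00 and -0.13 on the mock arrays, so the groups stood apart. It rose by 1.08 ± 0.14 (2.11-fold, limma adjusted p = 0.000779), and by 0.68 with quantile normalization. Ndufv2 rose by 0.49 ± 0.14 (limma adjusted p = 0.0204). Its call was lost with quantile normalization (0.17, limma adjusted p = 0.509) and without mock replicate 1, mock replicate 2 or ABCG2 replicate 2. The GFP-positive Ndufv2 value of -0.66 was far below the GFP-negative value of -0.062. That GFP-positive value averaged 1 probe set at -1.68 and others at -0.15 and -0.16. Ndufv1, which binds NADH, was at 0.23 and 0.35 against -0.12, -0.064 and -0.17 (0.41 ± 0.13, limma adjusted p = 0.0292). The Ndufv1 call was lost with quantile normalization (0.28, adjusted p = 0.219 in limma), without ABCG2 replicate 2 (0.35, adjusted p = 0.111) and without any 1 of the mock replicates (adjusted p 0.0581 to 0.0811). It held without ABCG2 replicate 1 (adjusted p = 0.0453 in limma). Ndufs1, the largest core subunit, did not pass, at 0.073 and 0.40 against 0.023, -0.050 and 0.00 (difference 0.25, 95% interval -0.11 to 0.60). Ndufs7 (0.32) and Ndufs8 (-0.074) did not pass.

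Among the 27 accessory subunits of complex I, which surround the core, 10 rose and 4 fell (35.6% and 26.2% of all genes). Their median was 0.10, against 0.15 over all genes. Ndufa12 (0.75 ± 0.17), Ndufab1, the mitochondrial acyl carrier protein (0.74 ± 0.20), and Ndufa10 (0.66 ± 0.14) rose most. Ndufv3, a small subunit next to the flavin site, fell by 0.74 ± 0.14 (limma adjusted p = 0.00346, and adjusted p = 0.0944 with quantile normalization). It lay at -0.87 and -0.67 on the ABCG2 arrays, at 0.034, 0.00 and -0.11 on the mock arrays, and at 0.40 and 0.84 on the GFP-negative and GFP-positive arrays. Its order was thus ABCG2 lowest, mock in the middle and the EZH2-Mt fractions highest, with no overlap. Among these, the Ndufab1 call was lost without mock replicate 2 or ABCG2 replicate 1 (limma adjusted p up to 0.0625). The other falls were in Ndufb6 (-0.50), Ndufa1 (-0.48) and Ndufa2 (-0.34). Ndufa2 lost its call without any 1 of the 5 arrays (limma adjusted p 0.0800 to 0.142). Ndufa1 lost it without mock replicate 2, mock replicate 3 or ABCG2 replicate 1 (limma adjusted p up to 0.0636). For Ndufb6 and Ndufa2 the mock arrays stood above all 4 others, with Ndufb6 at 0.41, 0.44 and 0.46 on mock arrays and from -0.29 to -0.020 elsewhere.

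Complex II, succinate dehydrogenase, joins the citric acid cycle to the chain. Of its 4 genes 1 rose and 0 fell (35.6% and 26.2% of all genes). Sdha, the flavoprotein, was at 0.15 and 0.21 on the ABCG2 arrays and at -0.19, 0.026 and -0.11 on the mock arrays (difference 0.27, 95% interval -0.048 to 0.59, limma adjusted p = 0.118). The 3 Sdha probe sets were apart, at 0.61 (adjusted p = 0.0117 in the limma fit per probe set), -0.0017 and 0.21. Sdhb, the iron-sulfur subunit, lay at 0.00 and 0.24 within the mock values of -0.015, 0.040 and 0.33. The membrane anchor Sdhc was at 0.30 and 0.25 against 0.00, -0.014 and 0.0077 and missed the threshold (0.27, limma adjusted p = 0.0887). Sdhd, the other anchor, rose by 0.63 ± 0.14 (limma adjusted p = 0.00833), at 0.75 and 0.53 against 0.036, 0.10 and -0.089. Its 2 probe sets differed, 1 by 1.26 ± 0.21 and the other by -0.0066 ± 0.14. The rise of Sdhd is thus that of 1 probe set, whose _x_at suffix marks probes that can match other transcripts, and it was lost with quantile normalization (limma adjusted p = 0.31).

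Complex III, the cytochrome bc1 complex, had 2 of 9 genes higher and 0 lower (35.6% and 26.2% of all genes). Its median was 0.12, which turned to -0.0080 with quantile normalization, against 0.15 and 0.070 over all genes. The rises were those of the small subunits Uqcrh, the hinge protein that helps cytochrome c dock (0.60 ± 0.14, limma adjusted p = 0.00927), and Uqcr11 (0.64 ± 0.15, limma adjusted p = 0.00999). Uqcrh was at 0.64 and 0.55 on the ABCG2 arrays and from -0.081 to 0.14 on the mock arrays, and Uqcr11 at 0.50 and 0.73 against -0.18 to 0.096. Both calls were lost with quantile normalization (adjusted p = 0.335 and 0.295), and Uqcr11 stood at the threshold without ABCG2 replicate 2. Of the electron-carrying subunits, Cyc1 lay at 0.10 and 0.20 against -0.25, 0.00 and 0.058, and Uqcrfs1 at 0.15 and 0.042 against -0.064, 0.00 and 0.057. ABCG2 overlapped mock for Uqcrfs1 and lay above it for Cyc1. Neither passed: cytochrome c1 (Cyc1) at 0.22 (95% interval -0.14 to 0.57) and the Rieske protein gene Uqcrfs1 at 0.096 (-0.21 to 0.40). Uqcrc1, a core protein, lay at -0.047 and 0.096 inside the mock values of -0.29, 0.19 and 0.00 (difference 0.060, interval -0.36 to 0.48). The lowest of the complex was Uqcrq, a small subunit, at -0.085 and 0.010 against 0.00, -0.14 and 0.27, within the mock range (difference -0.082). Uqcr10 lay at 0.043 and 0.36 against 0.13, 0.055 and 0.57, a difference of -0.048 and the mean of 3 probe sets at 0.61 (adjusted p = 0.0163 in the limma fit per probe set), -0.19 and -0.56, so that its sign depends on the probe set.

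Complex IV, cytochrome c oxidase, held both the largest fall of the 83 and the second largest rise, while 8 of its 12 genes did not pass. Of the rest 2 rose and 2 fell, beside 35.6% and 26.2% of all genes, and the median of the complex was 0.076. Cox6b2, the testis-type isoform of subunit VIb, was at -1.98 and -2.98 on the ABCG2 arrays and at -0.22, 0.00 and 0.091 on the mock arrays. The groups were far apart, although the ABCG2 arrays differed from each other by about 1 log2. The difference was -2.44 ± 0.29 (5.41-fold, limma adjusted p = 0.000614). With quantile normalization it was -1.27 (2.42-fold, limma adjusted p = 0.0084). On the GFP-negative and GFP-positive arrays Cox6b2 was at 0.59 and 0.93, above every mock array. The common isoform Cox6b1 was at 0.020 and 0.14 against -0.068, -0.048 and 0.036 (difference 0.11, 95% interval -0.20 to 0.41).

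Cox7c, a small subunit, was at 0.52 and 0.75 on the ABCG2 arrays and at -0.72, -0.57 and -0.36 on the mock arrays, and rose by 1.19 ± 0.16 (2.27-fold, limma adjusted p = 0.00105). Its probe sets moved together, 1 by 1.29 and the other by 1.08. Here the mock arrays were the low group, since the GFP-negative array was at 0.93 and the GFP-positive array at -0.031. Cox7a2l, which encodes a factor that ties complexes III and IV into supercomplexes, was at 0.84 and 0.82 against -0.037, -0.061 and -0.021. It rose by 0.87 ± 0.12 (limma adjusted p = 0.00114, and 0.47 with adjusted p = 0.0599 after quantile normalization), and all 3 of its probe sets rose, by 0.71 to 1.15. Its relative Cox7a2, a plain subunit, lay at -0.14 and -0.095 below the mock values of -0.069, 0.022 and 0.25 and did not pass (-0.18, 95% interval -0.53 to 0.17). Ndufa4 fell, at -0.70 and -0.41 against 0.027, 0.00 and 0.29 (-0.66 ± 0.16, limma adjusted p = 0.0120), and that call was lost with quantile normalization (adjusted p = 0.0999) and without ABCG2 replicate 1 (-0.52, adjusted p = 0.0574). The large nuclear subunits did not pass, with differences of 0.14 for Cox4i1 (95% interval -0.20 to 0.48) and 0.16 for Cox5a (-0.16 to 0.49). Cox4i1 lay at 0.00 and -0.025 against -0.27, -0.19 and 0.015, and Cox5a at 0.095 and 0.11 against -0.19, -0.029 and 0.041. The small subunit gene Cox6a1 was at -0.037 and -0.057 against -0.25, -0.038 and 0.011 (difference 0.047), and Cox8a at 0.0060 and 0.13 against -0.057, -0.010 and 0.25 (difference 0.0081). Both overlapped mock.

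Complex V, the ATP synthase, had 6 of 17 genes higher and 0 lower (35.6% and 26.2% of all genes), with a median of 0.22 (0.15 over all genes). In the catalytic head 2 of 5 genes rose. Atp5b, the catalytic beta subunit, was at 0.51 and 0.50 on the ABCG2 arrays and at -0.16, -0.074 and 0.00 on the mock arrays (0.58 ± 0.13, limma adjusted p = 0.00727, and 0.35 with adjusted p = 0.141 after quantile normalization). Its partner Atp5a1, the alpha subunit, was at 0.18 and 0.16 against -0.065 to -0.044 and did not pass (0.22, 95% interval -0.069 to 0.51). Atp5d rose by 0.61 ± 0.13, and Atp5c1 was at 0.13 and 0.37 inside the mock values of 0.44, 0.27 and 0.048 (95% interval of the difference -0.40 to 0.40). The Atp5c1 difference is the mean of 2 probe sets of opposite sign, at -0.29 and 0.29. In the stalk, Atp5o, which joins the stalk to the head, was at 0.84 and 0.95 against -0.051, 0.057 and -0.14 and rose by 0.94 ± 0.13 (limma adjusted p = 0.00121, and 0.51 with adjusted p = 0.0644 after quantile normalization). The lowest gene of complex V was Atp5h, another stalk subunit, at -0.28 and -0.26 against -0.018, 0.018 and 0.098, which did not pass (-0.30, limma adjusted p = 0.0730). Atp5k, of the membrane part, was at -0.12 and 0.074 against 0.023, 0.048 and 0.23, overlapping mock (-0.12).

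The c subunit, which forms the rotating ring of the ATP synthase, is made from 3 genes whose mature proteins are the same. Atp5g2 was at 0.85 and 1.04 on the ABCG2 arrays and at -0.22, -0.030 and 0.00 on the mock arrays, a rise of 1.03 ± 0.14 (limma adjusted p = 0.00112, and 0.63 with adjusted p = 0.0346 after quantile normalization). Atp5g1 was at 0.42 and 0.71 against -0.42, -0.31 and 0.00, a rise of 0.81 ± 0.18 (limma adjusted p = 0.00774, and 0.67 with adjusted p = 0.0690 after quantile normalization). Atp5g3 was at -0.0071 and 0.00 against -0.12, 0.11 and 0.15, inside the mock range (-0.051, 95% interval -0.39 to 0.29). The difference between these 3 genes was not tested.

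Atp5md, a small membrane subunit that helps the enzyme form dimers, had the widest range of the complex. It was at 0.73 and 0.57 on the ABCG2 arrays, at 0.37, -0.48 and 0.00 on the mock arrays, and at -0.95 and -1.11 on the GFP-negative and GFP-positive arrays. The ABCG2 arrays lay above mock by 0.69 ± 0.25, close to the threshold (limma adjusted p = 0.0487), and the call was lost with quantile normalization (limma adjusted p = 0.412). Leaving out mock replicate 2, mock replicate 3 or either ABCG2 array ended it too (limma adjusted p 0.0906 to 0.154), and it held without mock replicate 1 (0.89, adjusted p = 0.0168).

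**Figure D3:**
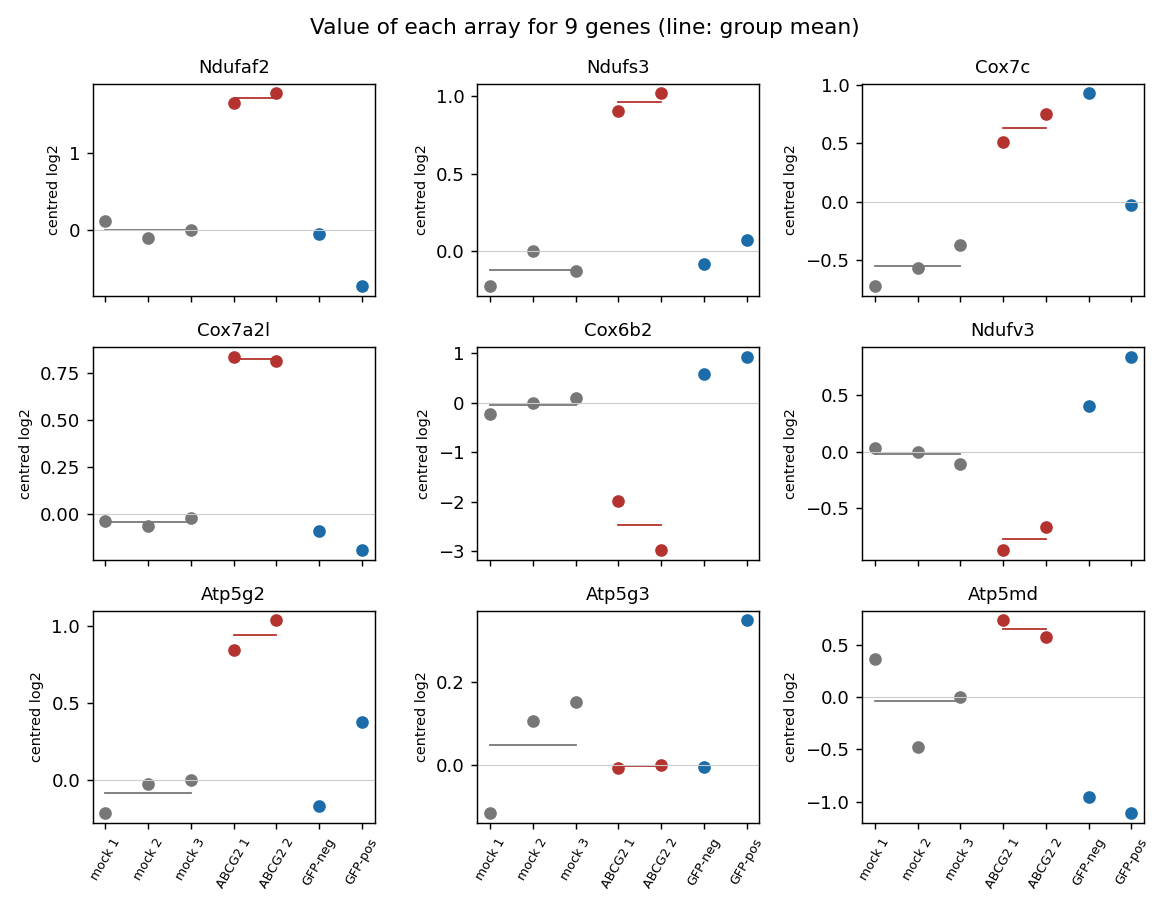
Centred value (log2) on each array for 9 genes, with a scale of its own in each panel, grey points for mock, red for ABCG2 and blue for the EZH2-Mt fractions, and a line at the mean of mock and of ABCG2. Ndufaf2, Ndufs3, Cox7a2l and Atp5g2 are highest on the 2 ABCG2 arrays, Cox6b2 and Ndufv3 stand low there, and Atp5md is lowest on the EZH2-Mt arrays.

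Many genes that build or serve the complexes rose in ABCG2 marrow. Of 36 measured assembly and insertion factors outside the Ndufaf genes 22 rose and 2 fell (median 0.57), and of 28 measured genes of protein import and cristae 20 rose and 0 fell (median 0.79). Over all genes 35.6% rose and 26.2% fell. With quantile normalization, tried on these lists after seeing the data, 9 of the 36 and 5 of the 28 rose and 0 fell, with medians of 0.40 and 0.43. Under that scaling 17.0% of all genes rose and 17.3% fell, with a median of 0.070. Whether these lists differ from the subunits was not tested. The largest in the first list were Tmem186 (2.23 ± 0.22) and Sdhaf1 (1.78 ± 0.14), of complex I and complex II assembly, and Atpaf1 (1.52 ± 0.17), which assembles the ATP synthase head. In the second they were Chchd6, of cristae junctions (1.9 ± 0.14), the mitochondrial Hsp70 gene Hspa9 (1.61 ± 0.13) and the chaperonin gene Hspe1 (1.6 ± 0.19).

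Of 20 measured nuclear regulators and mitochondrial DNA factors 10 rose and 1 fell (median 0.38), beside 35.6% and 26.2% of all genes. The largest were Polrmt, the mitochondrial RNA polymerase (1.44 ± 0.19), Polg2, an accessory subunit of the mitochondrial DNA polymerase (1.37 ± 0.16), and the helicase gene Twnk (1.37 ± 0.20). Of 17 genes of the citric acid cycle and pyruvate dehydrogenase 8 rose and 1 fell (median 0.39), with Idh3b (1.03 ± 0.15), Idh2 (0.84 ± 0.15) and Idh3a (0.68 ± 0.14) changing most. Electron carriers and ubiquinone synthesis had 7 of 15 higher and 2 lower. With quantile normalization 6 regulators rose and 0 fell (median 0.37), 0 citric acid cycle genes passed (median 0.17), and 2 electron carriers rose and 1 fell (median 0.18). Over all genes that scaling gave 17.0% higher and 17.3% lower. Among the electron carrier and ubiquinone genes, without quantile normalization, Gpd2, the mitochondrial glycerol phosphate dehydrogenase, fell by 2.03 ± 0.13. Dhodh, of pyrimidine synthesis (1.92 ± 0.15), and Coq2, of ubiquinone synthesis (1.42 ± 0.19), rose. Exchange carriers and channels split, with 4 of 12 higher and 3 lower, or 3 and 1 with quantile normalization. The citrate carrier gene Slc25a1 (2.64 ± 0.19) and the ADP/ATP carrier gene Slc25a4 (2.15 ± 0.13) rose, and the pyruvate carrier gene Mpc1 fell by 0.99 ± 0.13.

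**Figure D4:**
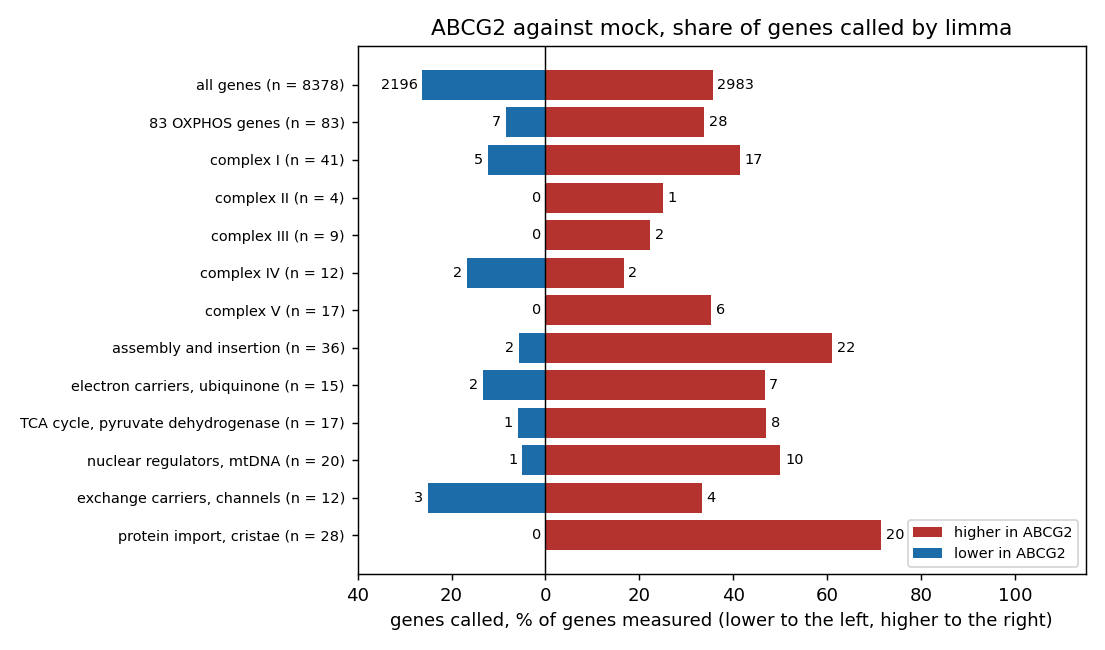
Share (%) of measured genes that rose (red, to the right) or fell (blue, to the left) in ABCG2 against mock marrow by limma, with the number of genes at each bar, for all genes, the 83 oxidative phosphorylation genes, each complex and 6 related lists. Protein import with 20 of 28 higher has the longest red bar, and complexes II, III and V and protein import have no gene lower.

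Many of these genes lay low in both EZH2-Mt fractions, while the GFP-positive median of complex IV (0.13) exceeded the mock medians (-0.14 to 0.043). For complex V the GFP-positive median (0.00) fell within the mock medians (-0.065 to 0.020). The fractions have 1 array each and were sorted while mock marrow was not, so they were set beside the mock arrays without a test. The GFP-negative array was below all 3 mock arrays in 43 of the 83 genes (30.7% of all genes) and above them in 12 (38.9% of all genes). The GFP-positive array was below in 40 (33.6% of all genes) and above in 29 (42.5% of all genes). Both arrays were below mock in 31 genes, or 37.3%, against 20.6% of all genes, and both above in 9, or 10.8%, against 27.4%. With quantile normalization these counts were 32 and 5 (22.6% and 22.5% of all genes). The median difference from the mock mean was -0.082 for GFP-negative and -0.075 for GFP-positive cells, against 0.043 and 0.061 over all genes. With quantile normalization it was -0.24 and -0.16, and leaving out 1 mock array moved the GFP-negative median between -0.15 (without mock replicate 1) and -0.044 (without mock replicate 3). Cell markers differed from mock as well. Of 7 monocyte and macrophage markers 6 were past 1.5-fold lower in both fractions (medians -1.44 and -1.21), 3 of 4 T and NK markers were past it higher in GFP-negative cells (median 2.03), and 8 of 11 neutrophil markers in GFP-positive cells (median 1.24). Their part in the result was not tested.

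By complex, both fractions were below mock in 17 of 41 genes of complex I, 3 of 4 of complex II, 5 of 9 of complex III, 2 of 12 of complex IV and 4 of 17 of complex V. Over all genes 20.6% were below mock in both. The GFP-positive median difference from the mock mean was -0.091, -0.19, -0.17, 0.22 and 0.16 in complexes I to V, against 0.061 over all genes. For the GFP-negative array it was -0.066, -0.14, -0.27, 0.016 and -0.20, against 0.043. Past 1.5-fold, the GFP-negative array was higher in 2 genes (10.3% of all genes) and lower in 2 (7.20% of all genes). These were Cox7c (1.48) and Cox6b2 (0.64), higher, and Atp5md (-0.91) and Ndufaf7 (-0.59), lower. The GFP-positive array was higher past 1.5-fold in 2 genes (15.1% of all genes), Cox6b2 (0.98) and Ndufv3 (0.86), and lower in 7 (10.6% of all genes), or 9 in either direction (25.7% of all genes). The lowest of these were Atp5md (-1.07), Atp5c1, the rotor shaft of the ATP synthase (-0.83), and Ndufaf2 (-0.74). For Atp5c1 the GFP-positive array was at -0.92 on 1 probe set, with a mock mean of 0.48. On the other it was at -0.22, with a mock mean of 0.026. Atp5md, the lowest gene in both fractions, also had the mock arrays furthest apart among the 83, from -0.48 to 0.37.

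**Figure D5:**
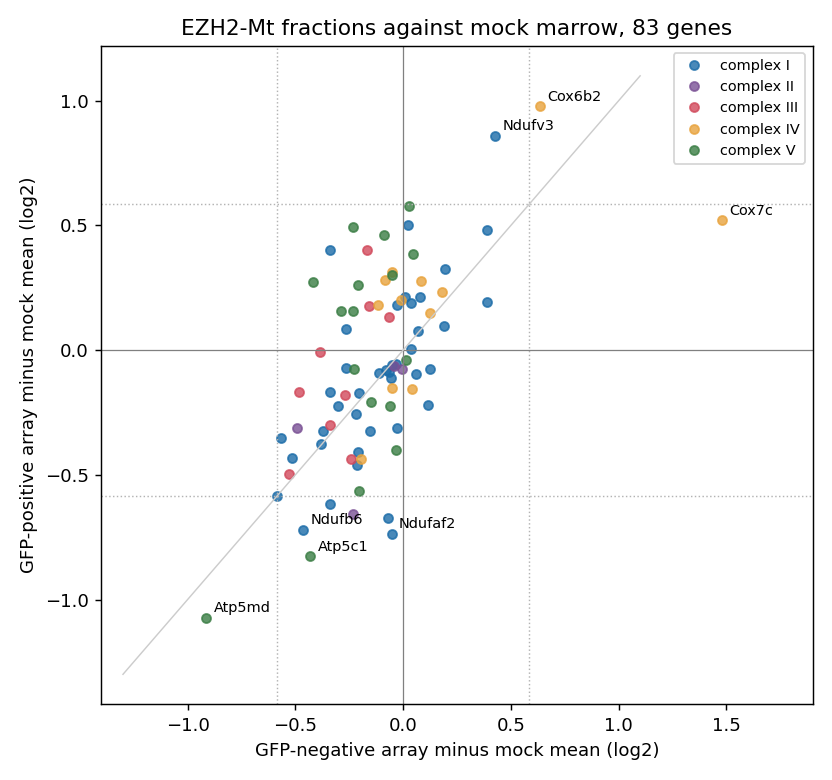
Difference from the mock mean (log2) for each of the 83 genes, on the GFP-negative array (horizontal) and on the GFP-positive array (vertical), coloured by complex, with dotted lines at 1.5-fold and a grey diagonal of equal values. The axes share the 3 mock arrays, most points lie within 1.5-fold, Atp5md is lowest on both axes, and Cox7c lies furthest to the right at 1.48.

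GFP-positive and GFP-negative cells of EZH2-Mt marrow differed past 1.5-fold in 6 of the 83 genes, 3 higher (7.88% of all genes) and 3 lower (6.65% of all genes), with 1 array each and no replicate check. With quantile normalization 11 were higher and 3 lower, or 14 of the 83 in either direction, while 23% of all genes passed 1.5-fold. Ndufaf5 (0.74), Atp5a1 (0.72) and Atp5g1 (0.69) were higher on the GFP-positive array, and Cox7c (-0.96), Ndufaf2 (-0.68) and Ndufv2 (-0.60) were lower. On 1 _x_at probe set Ndufv2 went from -0.052 (GFP-negative) to -1.68 (GFP-positive). On its others it went from 0.00 to -0.15 and from -0.13 to -0.16. Atp5a1 went from -0.20 to 1.23 on 1 probe set. On its others it went from -0.16 to 0.092 and from -0.49 to 0.0014. With the median of a gene's probe sets in place of the mean, 2 genes were higher and 2 lower. Over all genes 14.8% then passed 1.5-fold. Atp5a1 was at -0.28 on the GFP-negative array and 0.44 on the GFP-positive array, with the mock arrays from -0.065 to -0.044 between them. The median difference was 0.34 in complex V, 0.20 in complex III, 0.12 in complex IV, 0.0020 in complex I and -0.046 in complex II, against 0.0097 over all genes. With quantile normalization the medians were 0.28, 0.22, 0.029, 0.021 and -0.086. Past 1.5-fold, all 4 measured erythroid markers (median 1.17) and 8 of 11 neutrophil markers (median 0.83) were higher on the GFP-positive array, and 3 of 4 T and NK markers were lower (median -1.22). Their part in these differences was not tested.

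ABCG2 arrays and EZH2-Mt arrays were set side by side. Both ABCG2 arrays were above both EZH2-Mt arrays in 50 of the 83 genes, or 60.2%, against 40.4% of all genes, and below both in 14, or 16.9%, against 35.6%. They were above all 5 other arrays in 36 genes (34.9% of all genes) and below all 5 in 11 (27.7% of all genes).

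Promoter sequences of the genes that changed most are given because nuclear respiratory genes are known for binding sites of NRF1, of Ets factors such as GABPA, and of YY1 near their starts. RefSeq windows of 300 bases (build GRCm38.p6, from 250 before to 50 after the start) were found for 70 of the 83 genes, 75 windows in all. The letters searched on both strands were GCGC, any base and TGCGC in a row for NRF1, CCGGAAG for Ets factors, ATGGCGG for YY1, CCAAT for the CCAAT box and CACGTG for the E box, and none of these contains another. NRF1 letters were in 22.7% of the windows of these genes, against 4.6% of all 32851 windows. Ets letters were in 25.3% (8.86% of all windows), YY1 letters in 16.0% (4.05%), the CCAAT box in 40.0% (37.4%) and the E box in 9.33% (7.15%). Among genes that rose in ABCG2 marrow NRF1 letters were in 4 of 29 windows, among those that fell in 0 of 6, and among the rest in 13 of 40. A match describes letters in the window and no binding was measured.

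Windows of the 3 genes with the largest rises and the 3 with the largest falls are shown from 250 bases before to 30 after the start, on the strand of the gene, with matched letters in capitals. Among the risers, Ndufaf2 (chr13:108158596-108158875, minus strand) holds a pair of CCAAT boxes side by side on opposite strands, Cox7c (chr13:86046766-86047045, minus strand) holds no match, and Ndufs3 (chr2:90904692-90904971, minus strand) holds 2 Ets matches.
Ndufaf2: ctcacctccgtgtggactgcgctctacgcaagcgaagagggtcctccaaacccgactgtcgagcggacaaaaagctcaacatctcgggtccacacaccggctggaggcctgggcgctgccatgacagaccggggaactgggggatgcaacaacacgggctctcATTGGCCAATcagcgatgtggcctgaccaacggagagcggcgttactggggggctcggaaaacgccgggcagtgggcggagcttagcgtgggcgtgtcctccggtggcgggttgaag
Cox7c: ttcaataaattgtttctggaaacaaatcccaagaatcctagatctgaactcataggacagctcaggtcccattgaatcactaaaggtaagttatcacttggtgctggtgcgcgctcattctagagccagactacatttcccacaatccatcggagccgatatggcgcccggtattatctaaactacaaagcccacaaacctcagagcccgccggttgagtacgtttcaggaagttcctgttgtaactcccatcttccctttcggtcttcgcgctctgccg
Ndufs3: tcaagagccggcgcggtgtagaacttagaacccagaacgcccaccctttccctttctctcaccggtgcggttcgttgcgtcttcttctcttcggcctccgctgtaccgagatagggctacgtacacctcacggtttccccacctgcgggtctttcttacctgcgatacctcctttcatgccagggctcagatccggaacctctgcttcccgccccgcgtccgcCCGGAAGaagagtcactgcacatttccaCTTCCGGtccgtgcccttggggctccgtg
Among the genes that fell, Cox6b2 (chr7:4753065-4753344, minus strand) holds 3 CCAAT boxes, Ndufaf3 (chr9:108567407-108567686, minus strand) holds 1 and Ndufv3 (chr17:31519865-31520144, plus strand) holds 2.
Cox6b2: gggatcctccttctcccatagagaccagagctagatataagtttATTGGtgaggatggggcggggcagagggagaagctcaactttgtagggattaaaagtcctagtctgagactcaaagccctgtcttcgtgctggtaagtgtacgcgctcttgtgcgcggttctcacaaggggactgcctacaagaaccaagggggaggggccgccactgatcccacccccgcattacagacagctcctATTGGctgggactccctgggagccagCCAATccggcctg
Ndufaf3: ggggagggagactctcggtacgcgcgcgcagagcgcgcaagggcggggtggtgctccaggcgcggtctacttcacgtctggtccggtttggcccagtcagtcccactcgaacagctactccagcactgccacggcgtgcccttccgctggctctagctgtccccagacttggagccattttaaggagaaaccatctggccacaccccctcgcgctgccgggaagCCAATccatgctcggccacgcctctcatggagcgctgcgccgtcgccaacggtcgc
Ndufv3: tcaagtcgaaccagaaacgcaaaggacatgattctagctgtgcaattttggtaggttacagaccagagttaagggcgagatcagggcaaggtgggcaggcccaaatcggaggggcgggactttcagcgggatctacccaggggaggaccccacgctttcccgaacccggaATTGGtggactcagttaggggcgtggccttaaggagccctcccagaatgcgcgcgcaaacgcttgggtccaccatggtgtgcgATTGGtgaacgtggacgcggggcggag
For contrast, Ndufa8 (chr2:36049309-36049588, minus strand) and Cox6a1 (chr5:115348929-115349208, minus strand) are the genes with NRF1 letters whose difference between ABCG2 and mock was nearest to 0, at 0.010 and 0.047. The Cox6a1 difference is the mean of 2 probe sets of opposite sign, at -0.23 and 0.32. Ndufa8 holds 1 NRF1 match, and Cox6a1 holds 2 NRF1 matches, 1 Ets match and 1 CCAAT box.
Ndufa8: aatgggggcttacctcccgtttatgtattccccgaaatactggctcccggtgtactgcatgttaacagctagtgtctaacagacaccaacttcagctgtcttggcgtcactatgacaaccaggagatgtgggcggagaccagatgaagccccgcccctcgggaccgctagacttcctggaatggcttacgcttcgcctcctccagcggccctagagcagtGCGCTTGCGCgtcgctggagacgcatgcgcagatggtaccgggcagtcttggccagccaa
Cox6a1: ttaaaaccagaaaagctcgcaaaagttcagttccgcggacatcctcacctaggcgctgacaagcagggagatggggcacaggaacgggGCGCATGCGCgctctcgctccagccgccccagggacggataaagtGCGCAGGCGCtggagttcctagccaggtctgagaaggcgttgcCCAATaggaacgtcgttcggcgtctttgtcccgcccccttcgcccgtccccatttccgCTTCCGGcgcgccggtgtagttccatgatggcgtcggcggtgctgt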

How the data were processed

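Per the file headers, the deposited values are normalized log2 signals (base not stated, taken as log2) of Affymetrix.GeneChip.Mouse430_2 probe sets, which the authors kept for raw signals of 3 to 120534.25 detected as Present or Marginal on 100% of the arrays. The submitters' processing notes name MAS5, and no source used here gives the scaling between arrays. Every one of the 16309 probe sets has a median of 0 over the 7 arrays. The largest probe set range, 8.70, exceeds what base 10 allows (4.6) and not natural logs (10.6), so folds assume base 2. The series table and the sample files agree (largest difference 0).

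Control probe sets (54) were left out, as were 6 probe sets that name a gene of the rule beside another. A gene's value is the mean of its probe sets. All 8378 genes were fitted with limma 3.58.1 (R 4.3.3, lmFit and eBayes, two-sided) on the mock and ABCG2 arrays, with Benjamini-Hochberg adjustment over all genes. Intervals are 95% intervals of that fit and ± is its standard error. No set test was run. The script was tested on simulated data. Array number limits precision.

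By rule, values per array were given for the called genes with at least 1 log2, the extremes of each complex, defining subunits, isoform sets, genes whose probe sets span over 1 log2 and the extremes of the EZH2-Mt comparisons, and in related lists the 3 largest changes; others named were chosen after their values were seen. Members and lists were chosen with earlier results of these data known. Alternatives were scaling, weights, the arrays and probe sets used, a replicate block and leaving out each array.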

Additional observations from a re-analysis of the deposited data

How the results depend on the processing

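The median of the 83 genes in ABCG2 minus mock stayed above 0 in all 14 alternatives tried, as did the median over all genes. With quantile normalization these medians were 0.073 and 0.070, and without mock replicate 1 they were 0.12 and 0.15. Of the 83 genes, quantile normalization gave 5 higher and 4 lower (17.0% and 17.3% of all genes). It put 14 past 1.5-fold between the EZH2-Mt fractions (23% of all genes). That scaling narrows the ABCG2 arrays by construction. With probe sets free of the _x_at, _s_at and _a_at suffixes, which 60 of the 83 genes have, 18 rose (30%, against 34.2% of all genes with such probe sets). With a 2-fold threshold 0 of the 83 differed between the fractions (3.1% of all genes). Leaving out 1 array gave 17 to 24 rises, 4 to 8 falls and medians of 0.12 to 0.22. The 4 and the 8 falls came without an ABCG2 array, which left 1 in that group. Without 1 mock array 17 to 24 rose and 5 to 6 fell, beside 29.4% to 31.7% and 21.8% to 23.8% of all genes. The medians over all genes were 0.13 to 0.18 with any 1 of the 5 arrays left out. The same replicate numbers occur in mock and ABCG2 titles, but the labels do not say that they pair arrays. Deviations of same-numbered arrays correlated at 0.067 and -0.060. With the replicate number as a block 25 rose and 4 fell (30.7% and 23.7% of all genes), and the median was 0.22 (0.15 over all genes). In alternatives added after seeing the data, both fractions lay above mock in 5 genes with quantile normalization and in 5 with suffix-free probe sets (22.5% and 27.7% of all genes). Leaving out 1 mock array gave 10 to 16 above (31.6% to 32.8% of all genes) and 31 to 36 below (23.1% to 25.2% of all genes). Sdhd turned to -0.0066 with suffix-free probe sets and with its first probe set alone, and Uqcr10 to 0.61 with its first. Of the 35 called genes, the 6 that kept their call in every alternative run on them were Ndufs3, Ndufaf2, Ndufaf5, Cox6b2, Cox7c and Atp5g2. Signal over background cannot be judged from centred values.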
